A study of Saccharomyces cerevisiae with 14 samples.

Results

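The genes described here are 7 protein-coding genes of budding yeast (Saccharomyces cerevisiae) chosen by name for their place in early transcription termination: the termination factors NRD1, NAB3, SEN1 and PCF11, and the nucleotide-synthesis genes IMD2, URA8 and ADE12, which are controlled by early termination. All 7 were found once among the 12449 features and 6688 protein-coding features of the deposited counts table. The study marked newly made RNA by feeding 4-thiouracil (4tU), a sulfur-bearing form of uracil, and sequenced the RNA that could be biotinylated at the sulfur and bound to streptavidin. Cells were treated for 1.5, 2.5 or 5 min (n = 3 libraries each, from timecourses 1, 2 and 3), and total RNA depleted of rRNA was sequenced from the same timecourses (n = 3). A background group of 2 libraries was captured without label; their titles name timecourses 1 and 3, but the count columns do not say which is which, so they are called no-label libraries 1 and 2. The source label of 1 of the 2 reads as depleted total RNA while its title reads as background, and the title set its group. Every group shares strain W303U, of mating type a (MATa), with the alleles ade2-1, his3-11, 15 and trp 1-1 as well as leu2-3, 112 and can1-100. Cultures of 600 ml grew at 30 degrees C in SD medium lacking uracil and leucine to an OD600 of 0.8, and labelled cultures received 500 µM 4tU. The ade2-1 allele lies in the adenine pathway that ADE12 belongs to, and all groups carry it, so no group shows these genes without it.

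RNA polymerase II in yeast ends its transcripts along different routes. At most mRNA genes the cleavage and polyadenylation machinery cuts the RNA, while at snoRNA genes and cryptic unstable transcripts (CUTs) the Nrd1-Nab3-Sen1 complex ends transcription early and hands the RNA to the TRAMP complex and the nuclear exosome for trimming or decay. Nrd1 and Nab3 are RNA-binding proteins that recognise short sequences, GUAA or GUAG for Nrd1 and UCUU for Nab3, and Nrd1 also contacts the tail (CTD) of the polymerase. Sen1 is a helicase that releases the polymerase, and Pcf11 is a subunit of cleavage factor IA that binds the same tail and takes part in either route. The same complex stops transcription soon after the start of some coding genes, including NRD1 itself. At IMD2, URA8 and ADE12 short terminated RNAs start upstream of the mRNA, and at IMD2 the choice of start site, made in response to GTP, decides whether the short RNA or the mRNA is made.

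The DNA around the starts of the 4 genes with such early RNAs is shown because it holds the words that Nrd1 and Nab3 are known to read. Each window runs from 250 bases before the annotated start to 50 bases after it, 5′ to 3′ on the gene's own strand, in build R64. The annotated start is the ATG start codon in all 4 windows and not a measured start of transcription. They lie at chrXIV:174266-174565 on the minus strand for NRD1, chrVIII:554146-554445 on the plus strand for IMD2, chrX:620504-620803 on the plus strand for URA8 and chrXIV:234163-234462 on the plus strand for ADE12. Capitals mark GTAA, GTAG and TCTT, the DNA forms of the words above, and TCTTCTT is a pair of overlapping TCTT words.
NRD1: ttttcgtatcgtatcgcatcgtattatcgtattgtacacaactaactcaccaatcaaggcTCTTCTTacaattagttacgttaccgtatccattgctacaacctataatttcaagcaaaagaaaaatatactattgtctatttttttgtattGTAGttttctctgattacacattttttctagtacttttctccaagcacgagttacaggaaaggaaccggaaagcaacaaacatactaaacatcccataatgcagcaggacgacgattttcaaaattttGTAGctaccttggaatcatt
IMD2: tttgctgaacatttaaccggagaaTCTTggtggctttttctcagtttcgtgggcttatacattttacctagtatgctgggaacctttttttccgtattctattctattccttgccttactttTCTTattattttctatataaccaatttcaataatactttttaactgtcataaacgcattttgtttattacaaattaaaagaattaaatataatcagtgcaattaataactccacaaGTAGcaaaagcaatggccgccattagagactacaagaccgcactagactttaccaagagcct
URA8: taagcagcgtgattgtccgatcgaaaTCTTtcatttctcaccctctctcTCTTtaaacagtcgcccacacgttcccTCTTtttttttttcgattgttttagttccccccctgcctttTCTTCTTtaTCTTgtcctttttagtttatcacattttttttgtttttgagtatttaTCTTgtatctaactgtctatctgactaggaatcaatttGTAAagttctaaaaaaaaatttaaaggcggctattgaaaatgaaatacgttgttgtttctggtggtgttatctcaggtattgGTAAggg
ADE12: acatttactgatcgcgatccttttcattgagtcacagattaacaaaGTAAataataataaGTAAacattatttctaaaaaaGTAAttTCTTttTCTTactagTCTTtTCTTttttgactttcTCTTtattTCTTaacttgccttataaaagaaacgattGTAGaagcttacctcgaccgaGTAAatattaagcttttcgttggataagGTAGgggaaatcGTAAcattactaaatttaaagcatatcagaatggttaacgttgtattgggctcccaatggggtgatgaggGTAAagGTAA

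The windows differed in how many of these words they held. ADE12 had 7 GTAA, 2 GTAG and 6 TCTT on its own strand, 15 words in all, against a median of 4 over 6001 such windows of the genome, of which 0.05% held at least as many. GTAA stood out most there, since 0.083% of windows held 7 or more. URA8 had 7 TCTT (2.15% of windows held at least as many) and 2 GTAA on its own strand, while its other strand held none of the 3 words. NRD1 had 2 GTAG, both in the longer form TGTAG (2 or more in 2.35% of windows), and 2 TCTT; its other strand held 5 GTAA (1.55%). IMD2 held 1 GTAG and 2 TCTT, 3 words in all, a count that 82.8% of windows reached. At least 1 GTAA was present in 76.4% of all windows, at least 1 GTAG in 54.6% and at least 1 TCTT in 85.3%, so a single match sets no gene apart. The windows of NAB3, SEN1 and PCF11 held 4, 3 and 5 words on their own strand, counts that 65.0%, 82.8% and 45.5% of windows reached. On its other strand SEN1 held 5 GTAG (0.383% of windows held at least as many), so rare counts were not limited to the genes shown. These are matches of letters and not measured binding, and which of these bases are transcribed was not determined.

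Read totals ran from 3618310 (total RNA of timecourse 1) to 65173280 (total RNA of timecourse 2), and the 7 genes had between 16 reads (PCF11 in total RNA of timecourse 1) and 8697 reads (IMD2 in total RNA of timecourse 2). Levels are given as CPM, read counts brought to a common library size and scaled by trimmed mean of M values (TMM) factors, which set the bulk of features to about the same level in every library. The total RNA library of timecourse 3 stood apart: it listed 12.9% of protein-coding features at 0, against 9.52% and 1.26% for timecourses 1 and 2. In the no-label libraries 51.2% and 55.4% of counts fell on rRNA, more than in any other. Levels of 6 a-specific genes at 1.5 min ran from 11.98 CPM (AGA2) to 228 CPM (STE2, the pheromone receptor gene), and those of 4 alpha-specific genes from 0.396 CPM (MF(ALPHA)1) to 27.4 CPM (SAG1). These lists overlapped, since AGA2 and MFA1 (19.4 CPM) lay below SAG1. The labels name timecourses and not separate starting colonies, so the p-values measure the spread between these libraries.

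Newly made RNA was compared with total RNA to see which transcripts take a larger or smaller share of recent synthesis than of the standing pool. A gene was called at an adjusted p under 0.05 in edgeR's quasi-likelihood test, over 11513 features. NAB3 was lower in 4tU RNA than in total RNA at 1.5 and 2.5 min, and IMD2 was lower at 2.5 and 5 min; no other member was called and none was called higher. Thus 1 of 7 members was called at 1.5 min, 2 of 7 at 2.5 min and 1 of 7 at 5 min. Over all features 18.1% were called at 1.5 min (6.65% higher and 11.5% lower), 15.1% at 2.5 min (4.73% higher, 10.3% lower) and 12% at 5 min (3.22% higher, 8.75% lower), so the members' share lay near the background. The members' median log2 fold change was -0.43, -0.68 and -0.58 at the 3 times, against 0.03, 0.11 and 0.13 over all features and -0.20, -0.10 and -0.03 over protein-coding features. A negative value sets a share of newly made RNA against a share of the standing pool. It does not by itself show that less of the transcript was made, and bulk RNA does not separate cells.

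These calls leaned on the scaling and on the timecourses. Of all calls 36.7%, 31.4% and 26.9% were higher at the 3 times under TMM, against 50.8%, 49.1% and 45.7% with DESeq2's size factors and 98.6%, 98.9% and 98.8% with library sizes alone. Library sizes alone moved the median of all features to log2 fold changes of 1.97, 2.04 and 1.86, so that NAB3 (0.95, 0.77 and 1.14) and IMD2 (0.80, 0.42 and 0.16) lay above 0 and below that median, and 5, 4 and 3 members were called, all higher. The changes below are therefore relative to the bulk of features. Without timecourse 1 edgeR called 297, 144 and 0 features at the 3 times and without timecourse 2 it called none, against 2085, 1735 and 1378 with all libraries and 3372, 2722 and 2294 without timecourse 3. The members called without timecourse 1 or 2 were likewise none, those without timecourse 3 were 2 each time, and those without total RNA of timecourse 3 alone were 4, 3 and 2.

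Among the termination factors, NRD1 had the highest level per length in every labelled library (RPKM, below). NRD1 (YNL251C, chrXIV:172588-174315) had 223, 117 and 178 CPM in timecourses 1, 2 and 3 at 1.5 min. Its level was 135, 89.5 and 137 CPM at 2.5 min, and 99.4, 67.8 and 108 CPM at 5 min. Total RNA held 70.4, 100.0 and 11.9 CPM. All 3 libraries of 1.5 min lay above all 3 of total RNA, a pattern that 16.2% of 6479 protein-coding genes shared, whereas the later times overlapped with total RNA. The log2 fold change against total RNA was 1.51 ± 0.58 (SE, adjusted p = 0.0913 by edgeR) at 1.5 min, 0.99 ± 0.57 (adjusted p = 0.253) at 2.5 min and 0.59 ± 0.57 (adjusted p = 0.501) at 5 min. How far NRD1 lay above total RNA differed by timecourse: at 1.5 min the log2 ratio within a timecourse was 1.66, 0.23 and 3.90, the last against the total RNA library that stood apart. Without that library the fitted change was 1.02 with an adjusted p of 0.0411; without total RNA of timecourse 2 it was 2.09 (adjusted p = 0.0375), and DESeq2 gave 1.61 (adjusted p = 0.0267).

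NAB3, which encodes the partner RNA-binding protein of Nrd1, was lower in 4tU RNA than in total RNA at the shorter times. NAB3 (YPL190C, chrXVI:185317-187725) stood at 28.1, 30.7 and 18.0 CPM at 1.5 min, 22.8, 20.8 and 26.5 CPM at 2.5 min and 29.8, 28.3 and 45.1 CPM at 5 min, against 38.4, 54.7 and 68.2 CPM in total RNA. Every 1.5 min and 2.5 min library lay below every total RNA library, as it did for 19.6% and 18.5% of protein-coding genes, and at 5 min 1 library overlapped. The log2 fold change was -1.08 ± 0.33 at 1.5 min (adjusted p = 0.0427 by edgeR) and -1.21 ± 0.33 at 2.5 min (adjusted p = 0.0301), both called, and -0.65 ± 0.33 at 5 min (adjusted p = 0.208). The 1.5 min call lay close to the threshold: it was lost with RLE size factors (adjusted p = 0.0529), with protein-coding features only (0.0759), without timecourse 1, 2 or 3 (0.215, 0.185 and 0.0665) and without total RNA of timecourse 2 (0.0539). The 2.5 min call was lost without timecourse 1 (0.22) or 2 (0.223).

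SEN1, the gene of the helicase, kept a narrow range in labelled RNA. SEN1 (YLR430W, chrXII:993434-1000129) stood at 26.9, 26.6 and 33.1 CPM at 1.5 min, 25.2, 35.1 and 26.1 CPM at 2.5 min and 25.2, 31.5 and 28.8 CPM at 5 min. Total RNA held 50.3, 53.7 and 13.2 CPM: timecourses 1 and 2 lay above all 9 labelled libraries and timecourse 3 lay below them all. The log2 fold changes of -0.43 ± 0.44, -0.44 ± 0.44 and -0.45 ± 0.44 at the 3 times were not called (adjusted p = 0.496, 0.502 and 0.497 by edgeR). With total RNA of timecourse 3 left out they were -0.85, -0.85 and -0.87 and all were called lower (adjusted p = 0.0137, 0.0153 and 0.0157 by edgeR), so 1 library decides this result.

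PCF11, the cleavage factor gene, depended on a single total RNA library as well, but another one. PCF11 (YDR228C, chrIV:921926-923806) stood at 29.3, 14.8 and 22.8 CPM at 1.5 min, 21.2, 18.3 and 18.6 CPM at 2.5 min and 19.7, 16.0 and 21.4 CPM at 5 min, against 10.1, 45.7 and 69.6 CPM in total RNA. The low value, in timecourse 1, rests on 16 reads. The log2 fold changes were -0.93 ± 0.53, -1.13 ± 0.53 and -1.16 ± 0.53, not called at any time (adjusted p = 0.232, 0.167 and 0.173 by edgeR). Without total RNA of timecourse 1, the shallowest library, they were -1.37, -1.57 and -1.60, all called lower (adjusted p = 0.0251, 0.0166 and 0.0199 by edgeR).

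**Figure D1:**
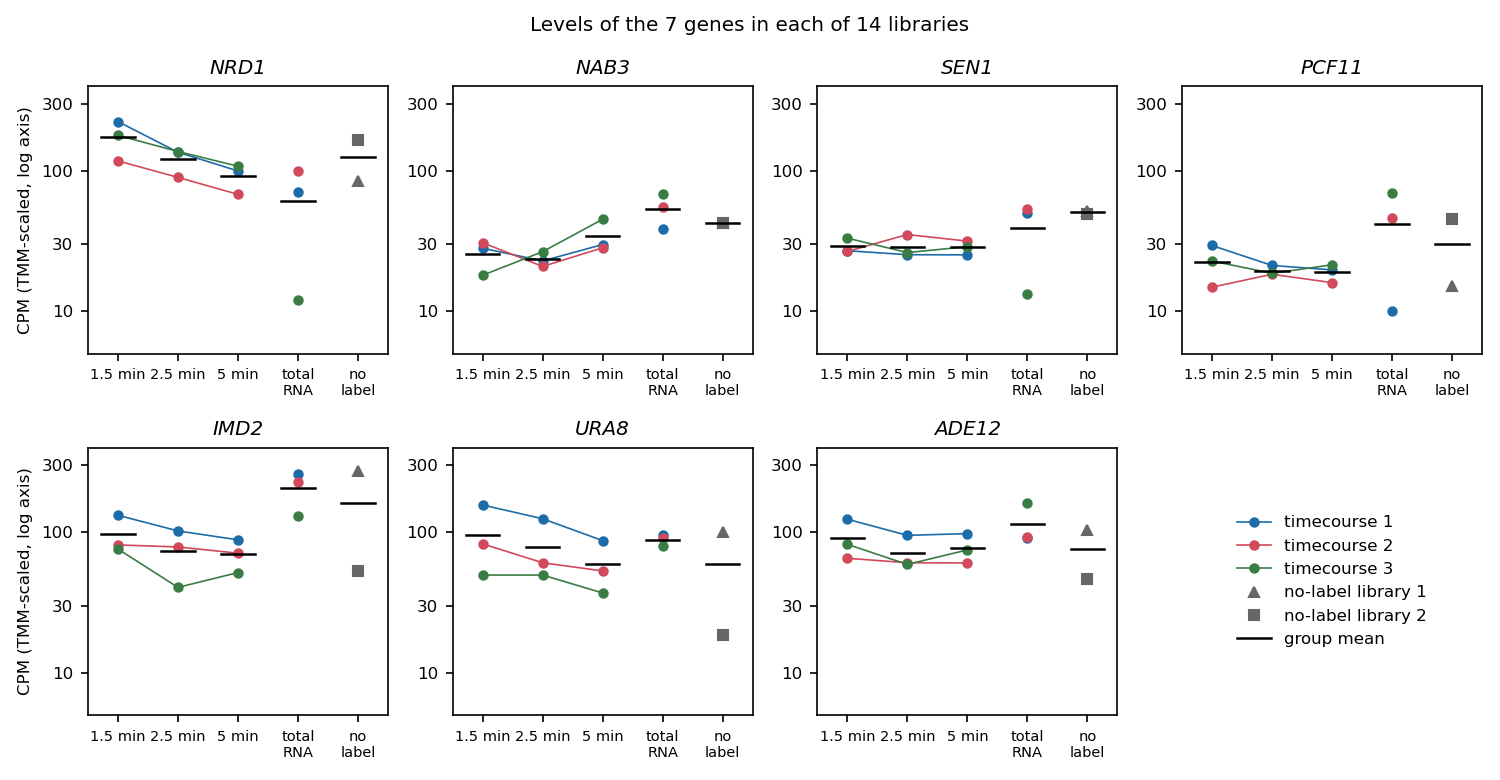
Level of each of the 7 genes in CPM (TMM-scaled, log axis) in the 14 libraries, with lines joining the 4tU times of a timecourse, bars for group means and grey symbols for the no-label libraries. NRD1 lies at 117 to 223 CPM at 1.5 min and at 67.8 to 108 CPM at 5 min, lower along every line, and in total RNA timecourse 3 (green) departs from the other two for NRD1 and SEN1.

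Per length, the nucleotide-synthesis genes were more abundant than NAB3, SEN1 or PCF11 in all 9 labelled libraries (RPKM, below). IMD2 encodes IMP dehydrogenase, the enzyme that commits IMP to GTP synthesis. IMD2 (YHR216W, chrVIII:554396-555967) had 132, 81.1 and 75.8 CPM at 1.5 min, 102, 78.5 and 40.5 CPM at 2.5 min and 88.2, 70.8 and 51.6 CPM at 5 min, against 259, 226 and 129 CPM in total RNA. All labelled libraries of 2.5 and 5 min lay below all total RNA libraries, a pattern found in 18.5% and 16.4% of protein-coding genes, and within each timecourse the labelled level was the lower one at all 3 times. The log2 fold change was -1.09 ± 0.40 at 1.5 min (adjusted p = 0.0808 by edgeR, not called), -1.48 ± 0.41 at 2.5 min (adjusted p = 0.0301) and -1.55 ± 0.41 at 5 min (adjusted p = 0.0296). With the timecourse as a block the 1.5 min change was -1.07 and was called (adjusted p = 0.00552), as it was without total RNA of timecourse 3 (-1.34, adjusted p = 0.0193) and without timecourse 3 (-1.19, adjusted p = 0.0221). Without total RNA of timecourse 1 the 2.5 and 5 min calls were lost (-1.27, adjusted p = 0.0785; -1.34, adjusted p = 0.0765), and they were lost without timecourse 1 (0.202 and 0.236) or 2 (0.219 and 0.227). Of the 50-base words of IMD2, 33.7% occur elsewhere in the genome, in IMD3 and in sequence with no annotated protein-coding gene, so its counts may be shared with near-identical copies and are uncertain to that extent; the other 6 genes had no such word.

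URA8 encodes CTP synthase, which makes CTP from UTP. URA8 (YJR103W, chrX:620754-622490) stood at 156, 82.5 and 49.5 CPM at 1.5 min, 125, 60.6 and 49.5 CPM at 2.5 min and 87.0, 53.0 and 36.9 CPM at 5 min, while total RNA held a narrow 95.0, 90.4 and 79.5 CPM. In labelled RNA the order of timecourses 1, 2 and 3 was the same at each time, and timecourse 1 was above total RNA at 1.5 and 2.5 min. The log2 fold changes of 0.12 ± 0.47, -0.18 ± 0.47 and -0.59 ± 0.47 were not called (adjusted p = 0.88, 0.818 and 0.419 by edgeR).

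ADE12 encodes adenylosuccinate synthase, the enzyme that sends IMP towards AMP. ADE12 (YNL220W, chrXIV:234413-235714) stood at 124, 65.2 and 81.9 CPM at 1.5 min, 94.9, 60.6 and 58.9 CPM at 2.5 min and 97.6, 60.4 and 74.7 CPM at 5 min, against 91.2, 92.3 and 160.1 CPM in total RNA. Its groups overlapped at 1.5 and 5 min and, through timecourse 1, at 2.5 min. Log2 fold changes of -0.35 ± 0.35, -0.68 ± 0.35 and -0.57 ± 0.35 were not called (adjusted p = 0.497, 0.199 and 0.295 by edgeR).

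**Figure D2:**
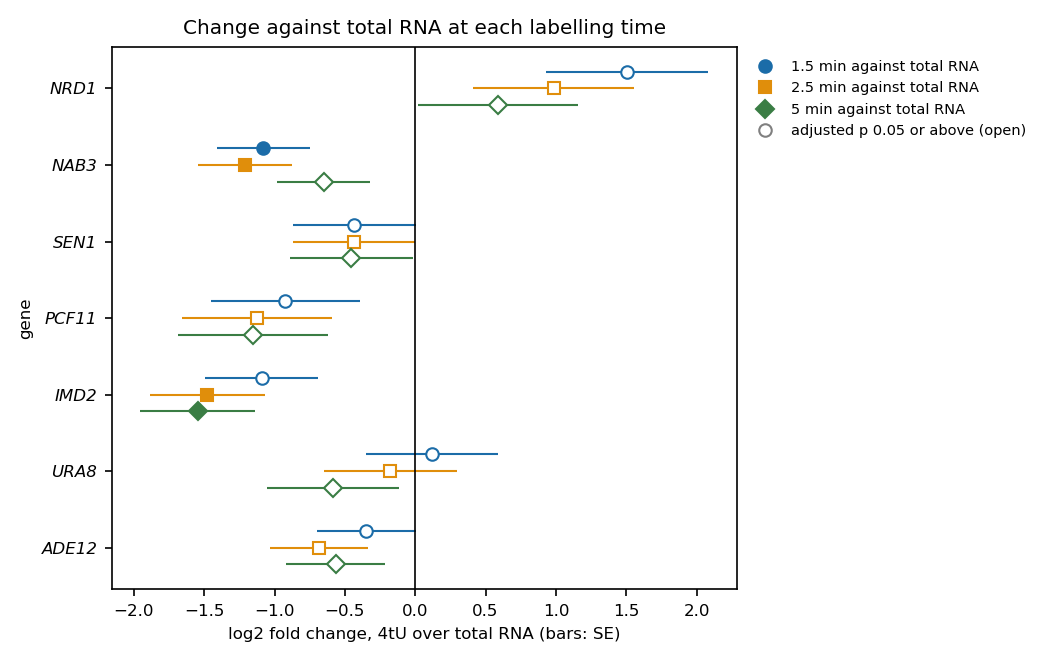
Log2 fold change of each gene, 4tU over total RNA (edgeR), at 1.5 min (circles), 2.5 min (squares) and 5 min (diamonds), with bars of 1 SE; filled symbols are called at an adjusted p under 0.05. The filled symbols are NAB3 at 1.5 and 2.5 min and IMD2 at 2.5 and 5 min, all left of 0 under TMM scaling, and NRD1 has its 3 points right of 0.

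The closest relatives of these genes were read beside them. Of the 50-base words of IMD3 16.6%, and of IMD4 5.53%, occur elsewhere in the genome, some of them in other IMD genes. Reads may thus be shared among the IMD genes, and their values are not independent to that extent. IMD4, another IMP dehydrogenase gene, was lower in 4tU RNA at all 3 times, by log2 fold changes of -1.38, -1.55 and -2.02 (adjusted p = 0.0245, 0.0167 and 0.00558 by edgeR). The 1.5 min call of IMD4 was lost without total RNA of timecourse 1 (adjusted p = 0.0681) or 2 (0.0539), and all 3 were lost without timecourse 1 or 2. IMD3 had -0.72, -1.29 and -1.29 and was not called; its total RNA held 597, 456 and 95.9 CPM, the last in the library that stood apart. Without that library IMD3 had -1.18, -1.74 and -1.74 and was called lower at all 3 times (adjusted p = 0.00858, 0.000986 and 0.00119 by edgeR), as it was without timecourse 3 (0.0168, 0.00369 and 0.00425). URA7, the other CTP synthase gene, had -0.61, -0.93 and -1.14, with adjusted p-values of 0.231, 0.0906 and 0.0548, and under the timecourse block its 5 min change of -1.12 was called (adjusted p = 0.0483). Without total RNA of timecourse 2 URA7 was called lower at 2.5 and 5 min (adjusted p = 0.0494 and 0.0292 by edgeR), and without that of timecourse 1 at 5 min (0.0441). URA7's window held 1 of the words above on its own strand, against 9 for URA8. In the IMD family the order was the other way, at 7 for IMD3 and 4 for IMD4 against 3 for IMD2. Whether URA8 and URA7, or the IMD genes among themselves, differ in their change was not tested.

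The series of labelling times asks whether a transcript's share of captured RNA changes as labelling goes on. NRD1 had the most negative values of the 7, below 0 in every timecourse: its log2 ratio of 5 to 1.5 min was -1.17, -0.79 and -0.73 in timecourses 1, 2 and 3. URA8 had ratios of -0.84, -0.64 and -0.42, IMD2 of -0.58, -0.20 and -0.56 and ADE12 of -0.34, -0.11 and -0.13. These 4 of 7 genes were lower at 5 than at 1.5 min in all 3 timecourses, as were 20.3% of 6479 protein-coding genes, while 35.7% of them and none of the 7 were higher in all 3. NRD1 and URA8 were also lower at each step in all 3 timecourses, or 2 of 7 against 5.29% of protein-coding genes; the step from 1.5 to 2.5 min of URA8 in timecourse 3 was nil to the digits given (49.5 and 49.5 CPM). NAB3 was the only member whose fitted change was above 0, at 0.43 ± 0.33, which came from timecourse 3 (a log2 ratio of 1.32, against 0.09 and -0.12).

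None of these differences passed the test. For 5 against 1.5 min the log2 fold changes were -0.92 ± 0.57 for NRD1, -0.70 ± 0.47 for URA8, -0.46 ± 0.40 for IMD2, -0.23 ± 0.53 for PCF11, -0.22 ± 0.35 for ADE12 and -0.02 ± 0.43 for SEN1. edgeR called 0 of 7 members and 0 of all 11513 features (0%), with 0 members and 739 features under an unadjusted p of 0.05, and DESeq2 called 0 members and 139 features. These fits do not use the pairing of libraries by timecourse. With the timecourse as a block the SE was 0.26 for URA8 and 0.21 for IMD2, against 0.58 for NRD1. URA8 then had an unadjusted p of 0.0322 and an adjusted p of 0.39 (edgeR), and again 0 features were called. The comparisons of each time with total RNA use the same total RNA libraries, so their values for a gene are not independent of each other.

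The no-label libraries show what the capture retains without 4tU. All 7 genes were found in both: NRD1 at 84.1 and 165 CPM in libraries 1 and 2, NAB3 at 42.6 and 42.6, SEN1 at 51.9 and 49.4, PCF11 at 15.1 and 45.4, IMD2 at 270.3 and 53.1, URA8 at 100.0 and 18.5 and ADE12 at 104 and 46.7. NAB3 and SEN1 were alike in both libraries, and both lay above all labelled libraries for SEN1. The share of protein-coding genes with that pattern was not counted, so it does not mark SEN1 out. Library 2 lay far below library 1 for IMD2 and URA8, and for URA8 below every other library. In the fit across all features edgeR's quasi-likelihood test called 0 of 7 members at each time, with 0, 1 and 0 members under an unadjusted p of 0.05 (the 1 was NAB3 at 2.5 min) and 0 by DESeq2, against 5.56%, 3.60% and 2.07% of 11688 features called. At 1.5 min the log2 fold changes ran from -0.81 ± 0.48 for SEN1 to 0.69 ± 0.67 for URA8. CPM are shares of a library, so these values do not say how much RNA was captured without label, and no group of these data gives that amount.

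The table lists 5 CUTs that carry the systematic name of a member with a leading C: CUT_CNL251CD2 for NRD1, CUT_CHR216WTs2 for IMD2, CUT_CJR103WD1 and CUT_CJR103WD2 for URA8 and CUT_CNL220WD2 for ADE12. The table gives no coordinates or strand for them, and the RPKM values imply lengths of 193 bases for CUT_CJR103WD1 and of 309 to 444 bases for the other 4. CUT_CJR103WD1 was found in every labelled library and hardly at all elsewhere. It had 72, 60 and 247 reads at 1.5 min, 74, 30 and 227 reads at 2.5 min and 47, 46 and 269 reads at 5 min, against 0, 9 and 0 reads in total RNA and 0 and 0 reads without label. In CPM this was 6.18, 2.06 and 5.50 at 1.5 min and 0.234 in the only total RNA library with reads. A count of 0 allows, at 3 counts, up to 1.89 and 0.437 CPM in total RNA of timecourses 1 and 3, so in timecourse 1 the limit lay close to the 2.06 CPM of timecourse 2 at 1.5 min.

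CUT_CJR103WD1 passed the filter on low counts through its labelled libraries alone. The names of the 5 CUTs were also written down after their counts had been seen. The p-values, calls and share of CUTs given here are therefore description and not independent support. The fitted log2 fold change of CUT_CJR103WD1 against total RNA was 4.91 ± 1.17, 4.86 ± 1.17 and 5.01 ± 1.18 at the 3 times (adjusted p = 0.0137, 0.0165 and 0.0175 by edgeR), all called higher. With 2 of 3 total RNA libraries at 0 its size is not fixed by these data: it ran from 4.24 to 9.80, 3.78 to 9.84 and 3.72 to 9.99 with 1 library of total RNA or 1 timecourse left out, highest without timecourse 2, whose total RNA held the only reads. Against the no-label group, where all libraries were at 0, its mean CPM was at least 23.6-fold, 22.7-fold and 25.2-fold higher at 1.5, 2.5 and 5 min, taking 3 counts over the group as the floor (adjusted p = 0.0274, 0.0344 and 0.0415 by edgeR). Leaving out a timecourse moved the adjusted p against total RNA above 0.05: to 0.203, 0.22 and 0.239 without timecourse 1, to 0.054, 0.0671 and 0.0855 without timecourse 2 and, at 2.5 and 5 min, to 0.0548 and 0.0648 without timecourse 3. Against no label the adjusted p (edgeR) rose to 0.264, 0.341 and 0.424 without timecourse 1 and to 0.284, 0.368 and 0.449 without timecourse 2. Without timecourse 3 it was 0.055 at 2.5 min and 0.067 at 5 min. Leaving out a no-label library left 1 in that group, so no p-value is given for those fits. The other 4 CUTs were not called against total RNA at any time, so 1 of 5 was called, and called higher, at each time, against 6.65%, 4.73% and 3.22% of all features called higher.

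Set against its gene in the same library, the CUT of IMD2 had the highest mean ratio of the 5 in each labelled group. CUT_CHR216WTs2 had 129, 60.2 and 112 reads per 100 reads of IMD2 at 1.5 min. The ratio was 77.2, 56.0 and 147 at 2.5 min, then 55.8, 53.7 and 105 at 5 min. In total RNA the figure was 24.5, 25.7 and 95.7, and without label 24.0 and 39.5. Thus all 9 labelled libraries lay above total RNA of timecourses 1 and 2 and above both no-label libraries, and total RNA of timecourse 3 lay within the labelled range. Reads of CUT_CHR216WTs2 and IMD2 could overlap, since neither the strand setting of the counting nor the CUT's position is given in the sources used here, and the ratio was not tested. How often other CUTs show this pattern was not counted.

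Of the CUTs named for URA8, CUT_CJR103WD1 had 2.01 to 23.9 reads per 100 reads of URA8 over the 9 labelled libraries, highest in timecourse 3 at every time. CUT_CJR103WD2 was steadier, at 19.1 to 28.8 reads per 100 reads of URA8 in labelled RNA, against 7.95, 13.8 and 47.8 in total RNA and 11.95 and 7.69 without label. All 9 labelled libraries again lay above total RNA of timecourses 1 and 2 and above the no-label libraries. CUT_CNL220WD2 had 56.7 to 66.3 reads per 100 reads of ADE12 in labelled RNA, against 51.0, 41.7 and 75.7 in total RNA and 48.8 and 44.9 without label. CUT_CNL251CD2 stayed at 2.54 to 11.8 reads per 100 reads of NRD1 in labelled RNA, against 5.36, 7.43 and 2.44 in total RNA and 8.61 and 11.9 without label, so its groups overlapped. In all 4 pairs other than that of NRD1, then, labelled RNA of timecourses 1 and 2 held more CUT reads per gene read than total RNA of the same timecourse. In timecourse 3 this held for CUT_CHR216WTs2 and CUT_CJR103WD1 only. There CUT_CJR103WD2 had 28.8, 23.8 and 22.5 in labelled RNA against 47.8, and CUT_CNL220WD2 had 65.4, 66.3 and 58.55 against 75.7. How often other CUTs show such patterns was not counted, so they set none of these genes apart.

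**Figure D3:**
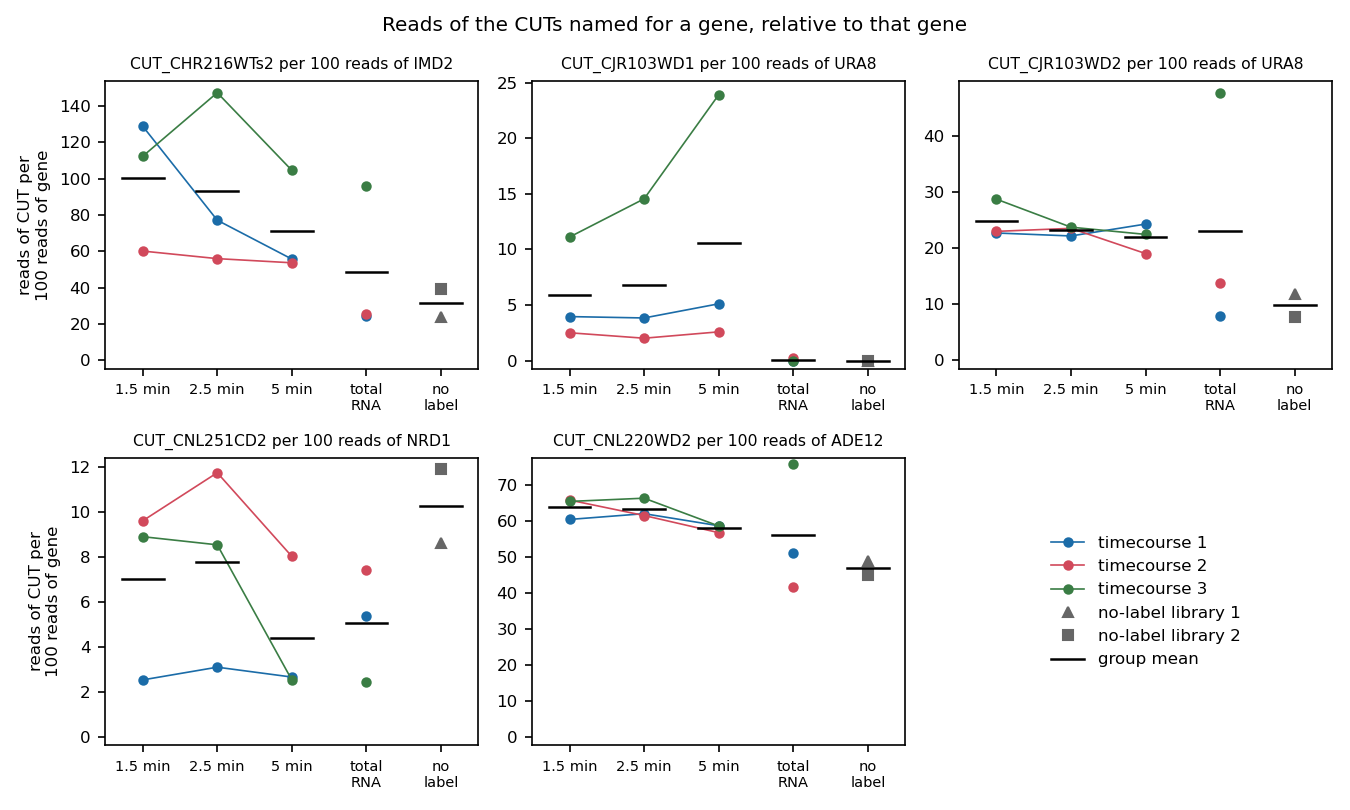
Reads of each CUT per 100 reads of the gene it is named for, by group, with lines joining the 4tU times of a timecourse, bars for group means and grey symbols for the no-label libraries (linear axes, scaled for each panel). CUT_CJR103WD1 lies at 2.01 to 23.9 in labelled RNA and at or near 0 elsewhere, and total RNA of timecourse 3 (green) lies above timecourses 1 and 2 for the CUTs of IMD2, URA8 (CUT_CJR103WD2) and ADE12.

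The wider machinery around these factors was read from lists of genes, all under TMM scaling. Of 25 genes of cleavage, polyadenylation and torpedo termination, PCF11 included, 4 rose and 1 fell in 4tU RNA against total RNA at 1.5 min, 5 of 25 beside 18.1% of all features. DESeq2 called 7 higher and 1 lower, and with 1 library or timecourse left out edgeR called 0 to 10 of the list at each time. The numbers were 4 and 1 at 2.5 min, then 2 and 1 at 5 min, and the list's median log2 fold changes 0.56, 0.79 and 0.74. PTI1 and SSU72, whose products belong to the cleavage and polyadenylation factor, rose by 2.66 ± 0.72 (adjusted p = 0.0248 by edgeR) and 2.42 ± 0.75 (adjusted p = 0.0436). YSH1, the endonuclease that cuts the RNA, rose by 1.69 ± 0.45 (adjusted p = 0.022) and RNA14, a partner of Pcf11 in cleavage factor IA, by 1.46 ± 0.33 (adjusted p = 0.0104); RNA14 stood at 33.0 ± 5.69 CPM at 1.5 min and 11.7 ± 4.35 CPM in total RNA (SD, n = 3). PAB1, the gene of poly(A)-binding protein, fell, at -2.13 ± 0.37 (adjusted p = 0.00247). YTH1, which encodes a zinc-finger subunit of the cleavage and polyadenylation factor, rose at 2.5 min (2.71 ± 0.78) and 5 min (3.14 ± 0.79). The call of SSU72 was lost without total RNA of timecourse 1 (adjusted p = 0.0575) and under the timecourse block (0.0503), and without total RNA of timecourse 1 those of YTH1 were lost as well (0.0785 at 2.5 min and 0.0601 at 5 min).

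Of 18 TRAMP and nuclear exosome genes, which act on the RNAs that the Nrd1 complex terminates, edgeR called 0 at 1.5 min, with 2 under an unadjusted p of 0.05 and 2 called by DESeq2. RRP40, an exosome cap subunit, was lower at 2.5 min (-1.09 ± 0.29, adjusted p = 0.0244 by edgeR) and 5 min (-1.13 ± 0.29, adjusted p = 0.0252), 1 of 18 each time; the list's medians were 0.06, 0.05 and 0.11. Of 22 genes of CTD phosphorylation and early elongation, BUR1, a CTD kinase gene, rose by 1.18 ± 0.34 at 1.5 min (adjusted p = 0.0304 by edgeR), and the elongation factor genes SPT5 and SPT6 fell, at -1.46 ± 0.42 (adjusted p = 0.0341) and -1.65 ± 0.41 (adjusted p = 0.017). BUR1 was not called without total RNA of timecourse 1 (adjusted p = 0.0551), and SPT5 was not called with protein-coding features only (0.0519) or without timecourse 3 (0.117). At 2.5 min edgeR called 0 of the 22, with 8 under an unadjusted p of 0.05 and 6 by DESeq2, and at 5 min it called BUR1 alone; with 1 library or timecourse left out it called 0 to 10, 0 to 8 and 0 to 8, and 0 to 4, 0 to 4 and 0 to 3 of the TRAMP and exosome list. The medians of the 22 were -0.10, -0.20 and 0.17. Beside the counts of both lists, 6.65% of all features were called higher and 11.5% lower at 1.5 min. These shares were 4.73% and 10.3% at 2.5 min, and 3.22% and 8.75% at 5 min.

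The 20 genes of GTP, AMP and CTP synthesis, IMD2, URA8 and ADE12 among them, had more calls than the other long lists, all lower under TMM. Of the 20, 8 fell at 1.5 min, 9 at 2.5 min and 9 at 5 min and none rose, beside 11.5%, 10.3% and 8.75% of all features called lower. The calls in this list numbered 0 to 12, 0 to 13 and 0 to 11 with 1 library or timecourse left out. The low end was without timecourse 2 and, at 5 min, without timecourse 1 as well. The median log2 fold changes were -0.87, -1.15 and -1.19. With library sizes alone the list's medians were 1.18, 0.82 and 0.60, above 0 but below the median of all features in that scaling. GUK1, guanylate kinase, stood at 23.8 ± 2.19 CPM at 1.5 min against 140.3 ± 27.9 CPM in total RNA (log2 fold change -2.56 ± 0.26, adjusted p = 0.000238 by edgeR). GUA1, GMP synthase, stood at 94.9 ± 9.31 against 325 ± 73.8 CPM (-1.78 ± 0.26, adjusted p = 0.000929), and ADE5,7, of the shared purine route, at 91.7 ± 24.0 against 390 ± 72.9 CPM (-2.09 ± 0.31, adjusted p = 0.00101). ADE3, ADK1, ADE6, IMD4 and ADE17 were the others called at 1.5 min, with log2 fold changes of -1.87, -1.62, -1.59, -1.38 and -1.25; ADE17 was not called without total RNA of timecourse 1 (adjusted p = 0.0628). Among these 20 genes IMD2 was called at 2.5 and 5 min, and URA8, ADE12 and URA7 were not called at any time. URA8, at 0.12, was 1 of 3 genes of the list with a value above 0 at 1.5 min.

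URA2, HRP1 and FKS2 are further genes at which early termination by the Nrd1 complex is known. URA2, which encodes the enzyme that opens pyrimidine synthesis, stood at 954 ± 208 CPM at 1.5 min against 4364 ± 2066 CPM in total RNA (log2 fold change -2.20 ± 0.45, adjusted p = 0.00604 by edgeR). FKS2, a glucan synthase gene, stood at 190.3 ± 23.9 against 418 ± 75.5 CPM (-1.14 ± 0.33, adjusted p = 0.0314), a call lost with protein-coding features only (0.0556) and without total RNA of timecourse 1 (0.0723). HRP1, a cleavage factor gene, stood at 9.15 ± 3.15 against 16.2 ± 9.51 CPM and was not called. Both called genes were lower at 2.5 and 5 min as well, 2 of 3 each time (0 to 3 with 1 library or timecourse left out). Over all features 11.5%, 10.3% and 8.75% were called lower at 1.5, 2.5 and 5 min. The 2.5 min call of FKS2 was lost without total RNA of timecourse 1 (adjusted p = 0.0743 by edgeR). The medians of the 3 genes were -1.14, -1.18 and -1.42.

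Against the no-label group fewer genes of the lists were called. Over all features 5.56%, 3.60% and 2.07% were called there at 1.5, 2.5 and 5 min, in either direction. Without timecourse 1 or 2 edgeR called 0 features, and without timecourse 3 it called 1045, 440 and 1. GUK1, GUA1, ADE5,7 and ADE17, 4 of 20, were lower than without label at all 3 times, with log2 fold changes of -2.18, -1.43, -1.80 and -1.56 at 1.5 min (adjusted p = 0.0137, 0.0437, 0.0322 and 0.0306 by edgeR). In the cleavage and polyadenylation list RNA14 was higher at 1.5 min (1.83 ± 0.47, adjusted p = 0.038) and 2.5 min, and PAB1 was lower at all 3 times (-1.95 ± 0.44 at 1.5 min, adjusted p = 0.024 by edgeR). SPT6 and RTF1, both of elongation, were lower at 1.5 min only, and RTF1's no-label libraries stood as far apart as 13.7 and 206 CPM. The genes lower in 4tU RNA than in total RNA thus included some that were lower than without label too, and the comparisons share the labelled libraries.

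**Figure D4:**
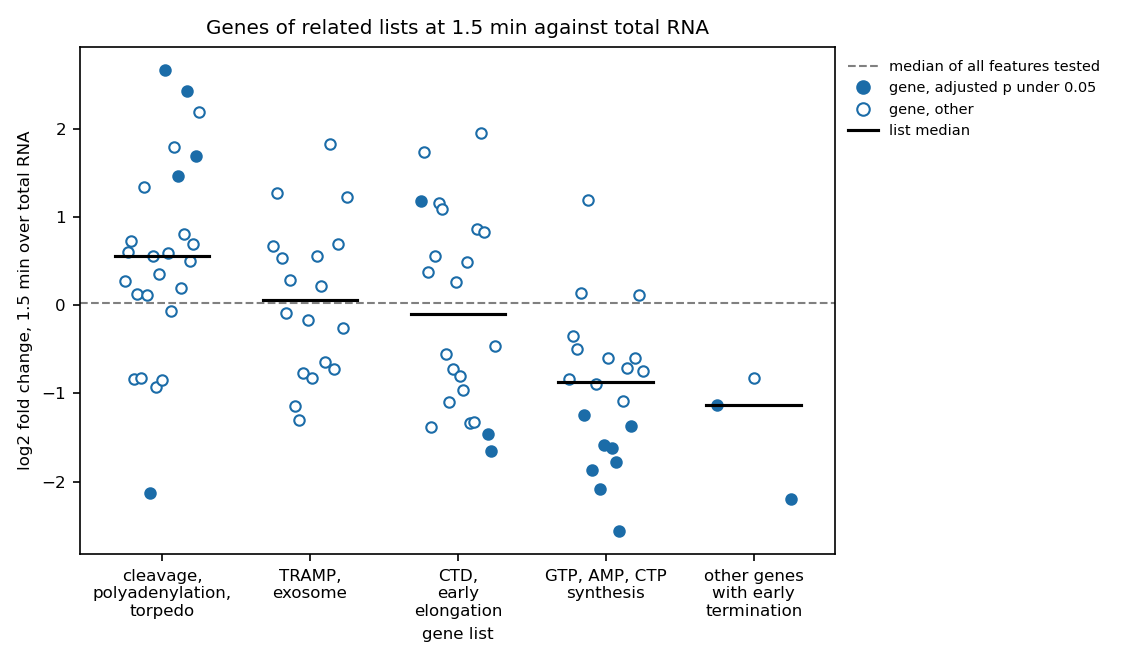
Log2 fold change at 1.5 min against total RNA for each gene of 5 lists (circles, filled where the adjusted p is under 0.05), with the list median (bar) and the median of all features (dashed line, 0.03). The nucleotide-synthesis list has its 8 filled circles below 0 and a median of -0.87, and the cleavage and polyadenylation list has 4 filled circles above 0 and 1 below.

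Levels between genes were ordered per length, by the RPKM values that the authors deposited. In every labelled library NRD1, ADE12, URA8 and IMD2 held the first 4 places and NAB3, PCF11 and SEN1 the last 3, with SEN1 always last. NRD1 led all 3 libraries of 1.5 min, at 122, 126 and 136 RPKM, followed by ADE12 at 97.2, 100.3 and 89.6 RPKM, so these neighbours did not overlap. ADE12 overlapped with the next neighbours, URA8 (94.2, 97.5 and 41.6 RPKM) and IMD2 (80.3, 96.7 and 64.2 RPKM), which overlapped with each other, and so did PCF11 (16.4, 16.2 and 17.7 RPKM) and NAB3 (10.1, 21.6 and 9.03 RPKM). In total RNA IMD2 led timecourses 1 and 2, at 53.3 and 82.8 RPKM, and ADE12 led timecourse 3, at 41.2 RPKM. NRD1 stood at 13.0, 33.0 and 2.14 RPKM there, in place 4, 3 and 6. The lengths behind the RPKM values are not given; those they imply were 0.86 to 1.11 times the annotated lengths of the 7 genes.

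The genes whose levels followed the members most closely were found by Pearson's r of log2 CPM over the 14 libraries, among 6478 protein-coding genes, with no test. NRD1 was most like RDS1 (r = 0.971) and YRR1 (0.963), NAB3 like SVS1 (0.926) and VTC4 (0.889), SEN1 like GCD1 (0.969) and YBR238C (0.955), and PCF11 like HOF1 (0.899) and NMD5 (0.892). IMD2 was most like COS6 (0.982) and ARO2 (0.97), URA8 like ADE16 (0.918) and ARO10 (0.914), and ADE12 like GWT1 (0.923) and CHO2 (0.904). No member was among the closest genes of another. The 14 points share libraries, depth and the outlying total RNA of timecourse 3, and over the 12 libraries without the no-label group only IMD2 kept both of its genes; NRD1 was then most like PRE1 (0.995) and YLR342W-A (0.975).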

How the data were processed

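Levels of RNA were measured by sequencing in 14 libraries of 5 groups. Per the labels' protocols, 2 mg of RNA was biotinylated and bound to streptavidin beads, libraries were randomly primed and amplified for 16 to 20 cycles of PCR, and the adapter carried 6 random bases. The sources used here do not say whether those bases served to remove PCR copies, which tool counted reads, on which strand, or how reads with several matches were treated. The submitters' processing notes list STAR 2.4.2a and R64, without a role. The authors deposited whole-number read counts per feature, used as deposited, and RPKM values, used only to order levels between genes; 2 per-sample RPKM columns, those of the no-label group, were not used. Of 12549 lines of the table, 100 that were repeats were removed.

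The 7 members, and the gene lists around them, were chosen with earlier results of these data known, and the 5 CUT names were written down after their counts had been seen. Genes named in the text are all members, their closest paralogs, CUTs named for a member and, from each list, the genes called at 1.5 min against total RNA or, in other comparisons, the 2 with the largest called change, plus the 2 closest protein-coding genes to each member by Pearson's r of log2 CPM (prior count 2).

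Counts were tested with edgeR 4.0.16 (R 4.3.3), by quasi-likelihood F tests with robust dispersion, TMM factors, filterByExpr at a minimum count of 10 and Benjamini-Hochberg adjustment over all features tested. The groups 1.5, 2.5 and 5 min and total RNA (12 libraries) were fitted together for comparisons among them, and all 14 libraries for the no-label group; CPM come from the 14-library scaling. The scripts were first tested on simulated counts with known changes. Those counts had less spread than these data (common dispersion 0.367 with 12 libraries and 0.408 with 14) and no timecourse effect. That test thus checks the scripts and not the error rates in these data. The timecourse numbers were checked for pairing before fits were compared: deviations from group means correlated at 0.251 to 0.87 within a timecourse (18 pairs of libraries) and at -0.649 to 0.084 between timecourses (36 pairs), so they pair the samples of the 4 groups whose columns carry them (the titles of the no-label libraries name timecourses 1 and 3, but their columns do not), and the fit without the block stayed as the one reported. The SE and p-values of that fit thus do not use the pairing. Alternatives were DESeq2 1.42.0, RLE factors or library sizes alone in edgeR, no filter, protein-coding features only, the timecourse as a block, and each timecourse, total RNA library or no-label library left out. Limits given for a count of 0 use 3 counts and cover counting error only, since reads are not independent molecules. Gene windows were read from the R64 genome and its RefSeq annotation, since the promoter table named in the plan was not used here; words were counted with overlaps on either strand. Figures were drawn with matplotlib 3.10.9.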

Additional observations from a re-analysis of the deposited data

How the results depend on the processing

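Leaving out the filter on low counts changed no count of members called. With DESeq2 2 members were called at 1.5 min against total RNA (NRD1 higher and NAB3 lower), with RLE factors 0 (NAB3 had an adjusted p of 0.0529), with protein-coding features only 0, and with the timecourse as a block, in which the pairing is used, 2 (NAB3 and IMD2, both lower); the block changed no other call of a member. Against no label, DESeq2 and RLE each turned ADE12 at 2.5 min to a log2 fold change of 0.01 (0.007 and 0.008) and URA8 at 5 min to 0.058, and protein-coding features only turned them to 0.23 and 0.23 and NRD1 at 2.5 min to 0.19. The block turned URA8 at 1.5 min to -0.069 and CUT_CNL251CD2 at 5 min to 0.025, both against total RNA, and CUT_CJR103WD1 from 1.5 to 5 min to -0.073. Over all features DESeq2 called 3544, 3187 and 2741 against total RNA and 1863, 1461 and 1308 against no label, where edgeR called 650, 421 and 242; with protein-coding features only edgeR called 244, 200 and 178 there, and with a timecourse left out 0 to 1045, 0 to 440 and 0 to 1. Of the calls against no label 28.6%, 22.1% and 22.7% were higher with edgeR and 48.8%, 45.0% and 42.0% with DESeq2. With library sizes alone the signs of the values below turned or their calls moved. Members called were then 5, 4 and 3 against total RNA and 5, 5 and 3 against no label. Against total RNA at 1.5, 2.5 and 5 min ADE12 had 1.68, 1.34 and 1.27, IMD2 0.80, 0.42 and 0.16, NAB3 0.95, 0.77 and 1.14, PCF11 1.09, 0.89 and 0.68, SEN1 1.41, 1.40 and 1.18, IMD3 1.16, 0.55 and 0.37, URA7 1.48, 1.16 and 0.76 and CUT_CNL220WD2 1.85, 1.50 and 1.32. At 2.5 and 5 min URA8 had 1.74 and 1.16, CUT_CHR216WTs2 1.61 and 1.07 and CUT_CJR103WD2 1.99 and 1.36. IMD4 had 0.495 and 0.29 at 1.5 and 2.5 min, CUT_CNL251CD2 1.42 at 5 min, and CUT_CJR103WD1 -0.091 from 1.5 to 5 min. Against no label IMD2 had 1.88, 1.50 and 1.24, NAB3 1.60, 1.43 and 1.80, PCF11 1.64, 1.44 and 1.23 and SEN1 1.53, 1.52 and 1.30, with NRD1 at 2.09 and 1.51 at 2.5 and 5 min, ADE12 at 2.38 at 2.5 min and URA8 at 2.44 at 5 min. With 1 timecourse or 1 library left out, members called ranged from 0 to 4, 0 to 3 and 0 to 2 against total RNA. Log2 fold changes that crossed 0 had these ranges. At 1.5 min against total RNA URA8 lay between -0.25 and 0.36, ADE12 -0.63 and 0.037, CUT_CHR216WTs2 -0.29 and 0.84, CUT_CJR103WD2 -0.41 and 1.36 and CUT_CNL220WD2 -0.57 and 0.47. At 2.5 min CUT_CHR216WTs2 lay between -0.67 and 0.01, CUT_CJR103WD2 -0.79 and 0.98 and CUT_CNL220WD2 -0.91 and 0.18. At 5 min NRD1 lay between -0.039 and 1.34, CUT_CJR103WD2 -1.32 and 0.55, CUT_CNL251CD2 -0.73 and 1.21 and CUT_CNL220WD2 -0.90 and 0.10. For 5 against 1.5 min NAB3 lay between -0.021 and 0.70, SEN1 -0.16 and 0.081 and CUT_CJR103WD1 -0.52 and 0.39. Against no label at 1.5 min PCF11 lay between -1.02 and 0.56, IMD2 -1.49 and 0.86, URA8 -0.06 and 2.38 and ADE12 -0.21 and 0.95; at 2.5 min NRD1 -0.45 and 0.52, PCF11 -1.23 and 0.36, IMD2 -1.875 and 0.475, URA8 -0.35 and 2.09 and ADE12 -0.54 and 0.62; and at 5 min NRD1 -0.85 and 0.12, PCF11 -1.25 and 0.33, IMD2 -1.94 and 0.41, URA8 -0.76 and 1.68 and ADE12 -0.42 and 0.74. The causes were not tested. Depth was lowest in total RNA of timecourse 1, where PCF11 had 16 reads, CUT_CJR103WD2 12, CUT_CNL251CD2 6 and CUT_CJR103WD1 0.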
